A study of Mus musculus with 8 samples.

Results

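The mSSC-YFP line is a stromal cell line of mouse spleen that carries a yellow fluorescent protein, and its transcriptome after culture with control splenic B cells is described here on its own. The members are the 4 arrays, of 8 in the series, whose titles name control splenic B cells as the partner of the stroma, and no values of the other 4 arrays (stroma cultured with leukemic B cells) enter a comparison. According to the labels the stroma was immortalised from spleens of C57BL6/N embryos late in gestation and used between passages 2 and 6, and the control B cells were primary cells from the spleens of adult mice matched in age to Eμ-TCL1 mice. Both were kept together for 40 to 48 h in medium with fetal bovine serum, at 20 B cells per stromal cell according to the labels, a ratio below the one that the published cell numbers give. The stromal cells were then separated from the B cells on a cell sorter, and their total RNA was hybridised to an Illumina mouse bead array. A cell line of 1 origin stands for spleen stroma here, the passage and exact hours of each array are not given. Nothing states that the 4 replicates came from independent cultures or from different B cell donors, so the spread below may be technical.

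Spleen stroma is the non-haematopoietic framework of the organ. Its mesenchymal cells, among them fibroblastic reticular and perivascular cells, lay down collagen and other matrix, contract, and release chemokines that place lymphocytes in the tissue. In the mouse embryo this mesenchyme is specified by a small group of transcription factors, of which Nkx2-5 and Tlx1 are among the best known.

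All 4 arrays lay on 1 chip. Between 13753 and 13938 of 25697 probes had a detection p-value below 0.05 per array, with a median signal of 67.2 in replicate 1 and between 76.0 and 79.5 in the other 3. A gene is called detected here when its probe passed this threshold on all 4 arrays. Of 16590 genes with a probe, 8642 (52.1%) were detected, 1314 (7.92%) passed on 1 to 3 arrays and 6634 (40.0%) passed on none. Signals are given below on the linear scale as deposited, and levels as log2 after background correction and quantile normalization of the 4 arrays, with the mean ± SD over the arrays (n = 4). A probe's brightness depends on how well it binds as well as on its transcript, so the order of genes is an order of probes, and no ratio between genes is given.

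The label of spleen stroma was checked against 8 genes taken as stroma markers, which were chosen with earlier results of these data known and are not a published definition of this line. All 8 were detected on all 4 arrays. *Acta2*, the smooth muscle actin of myofibroblasts, had signals of 27024, 24317, 32908 and 32472 in replicates 1 to 4 and a level of 14.84 ± 0.24. Its SD was the largest of the 8, and the gene ranked 33 of 16590. *Vim*, the intermediate filament of mesenchymal cells, had signals of 14786, 19811, 22223 and 18390 and a level of 14.18 ± 0.19. The collagen I chains *Col1a1* and *Col1a2* reached 13.71 ± 0.23 and 12.17 ± 0.15. *Thy1*, a surface glycoprotein of many fibroblasts, had signals of 8141, 11943, 10736 and 10060 and a level of 13.30 ± 0.14. These 5 genes were among the brightest 5% of genes, with the lowest of them, *Col1a2*, at percentile 95.5.

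The platelet-derived growth factor receptors, which drive growth of mesenchymal cells, were dimmer. *Pdgfra* had signals of 2262, 2552, 2413 and 2760 (11.26 ± 0.16) and *Pdgfrb* of 584, 542, 620 and 600 (9.12 ± 0.21). *Nkx2-5*, the homeobox factor of early spleen mesenchyme, was the dimmest of the 8, with signals of 132, 122, 154 and 132 and a level of 6.64 ± 0.22. Its highest detection p was 0.0025, so it passed the threshold on every array, but at percentile 57.0 of all genes it lay only about 1 log2 unit above the median of 5.56 for just-detected genes.

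**Figure D1:**
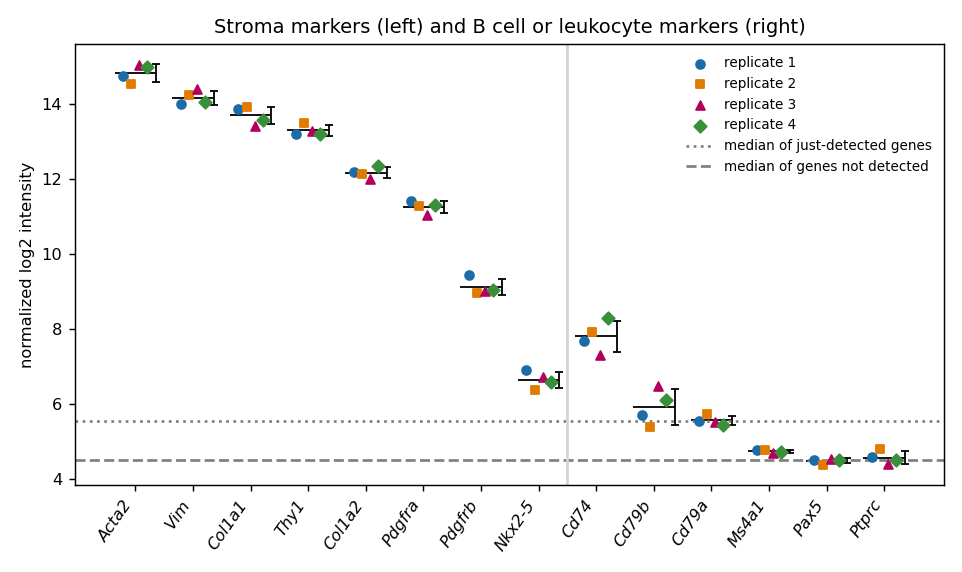
Normalized log2 intensity of the 8 stroma markers (left of the line) and 6 markers of B cells or leukocytes (right), 1 symbol per array, with the mean (bar) and SD (whisker) over 4 arrays. The dotted and dashed lines are the medians of just-detected genes (5.56) and of genes detected on no array (4.50): 7 stroma markers lie far above both, *Nkx2-5* (6.64) is the lowest of the 8 and above the dotted line, and *Ms4a1*, *Pax5* and *Ptprc* are at the dashed one.

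Of 33 genes on a wider list of fibroblast identity with a probe, 31 (93.9%) were detected on all 4 arrays, beside 52.1% of all genes, and 7 were among the 100 brightest. The 6 brightest were *Anxa2* (14.93 ± 0.16), *Lgals1* (14.87 ± 0.11), the collagen-folding enzyme *P4hb* (14.37 ± 0.13), the matricellular protein *Sparc* (14.29 ± 0.12), the gelatinase *Mmp2* (14.29 ± 0.05) and the small proteoglycan *Dcn* (14.20 ± 0.16). The 2 genes that failed were *Postn*, detected in replicate 4 alone, and *Fap*, detected in replicate 2 alone. *Nt5e*, the mesenchymal surface enzyme CD73, was just detected, with signals between 73.5 and 83.6.

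Among genes of contractile and perivascular cells, 13 of 21 (61.9%) were detected, beside 52.1% of all genes, and 6 were not detected on any array. The tropomyosins *Tpm1* (14.81 ± 0.15) and *Tpm2* (10.92 ± 0.23), the enteric actin *Actg2* (11.65 ± 0.37) and *Tagln* (9.49 ± 0.34) were among the detected genes. *Myh11*, the smooth muscle myosin, had signals of 46.8, 48.8, 47.4 and 49.9, and *Cnn1*, *Myocd*, *Pln*, *Synpo2* and *Abcc9* were also not detected. Other genes of differentiated smooth muscle were detected. Smoothelin (*Smtn*) had signals of 1129, 1588, 1991 and 1451, and leiomodin (*Lmod1*) had a low level of 6.17 ± 0.45. *Rgs5*, a pericyte gene, was near the threshold in 3 arrays and had a signal of 135 in replicate 2 (SD 0.57).

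Of 28 transcription factors of spleen and gut mesenchyme, 17 (60.7%) were detected, beside 52.1% of all genes. The TALE homeobox genes *Meis1* and *Meis2*, cofactors of Hox proteins, were the brightest at 11.68 ± 0.11 and 11.66 ± 0.06. *Gata6* followed at 11.23 ± 0.21, then the nuclear receptor *Nr2f1* at 10.85 ± 0.28 and *Wt1*, a factor that the developing spleen needs, at 10.12 ± 0.19. *Wt1* had signals of 870, 1094, 1570 and 1134. *Pbx3* was dimmer (7.24 ± 0.28) and *Gata4* was just detected. *Tlx1*, which the spleen primordium needs in order to persist, had signals of 46.7, 47.8, 49.3 and 49.9, near the median of 49.5 for genes detected on no array, and *Tcf21*, *Barx1*, *Tbx20*, *Foxd1* and *Ebf3* were likewise not detected on any array.

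The Hox genes give cells a memory of their place along the body axis. Of 38 with a probe, 20 (52.6%) were detected, a share like the 52.1% of all genes, 4 passed on 1 or 2 arrays and 14 on none. *Hoxb7* was the brightest (signals 3272, 4340, 3733 and 3690, level 11.87 ± 0.17), followed by *Hoxc6* (11.21 ± 0.17), *Hoxb5* (10.56 ± 0.10), *Hoxb2* (10.53 ± 0.09), *Hoxa5* (9.86 ± 0.07) and *Hoxc9* (9.37 ± 0.25). *Hoxa3*, *Hoxa6*, *Hoxa9*, *Hoxa10*, *Hoxa11* and *Hoxb1* were not detected on any array, so members low and high in number were among those missing. *Hoxd10* (5.74 ± 0.43), *Hoxc10* (6.47 ± 0.36) and *Hoxa13* (6.37 ± 0.30, named after its values were seen) were detected at low levels.

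**Figure D2:**
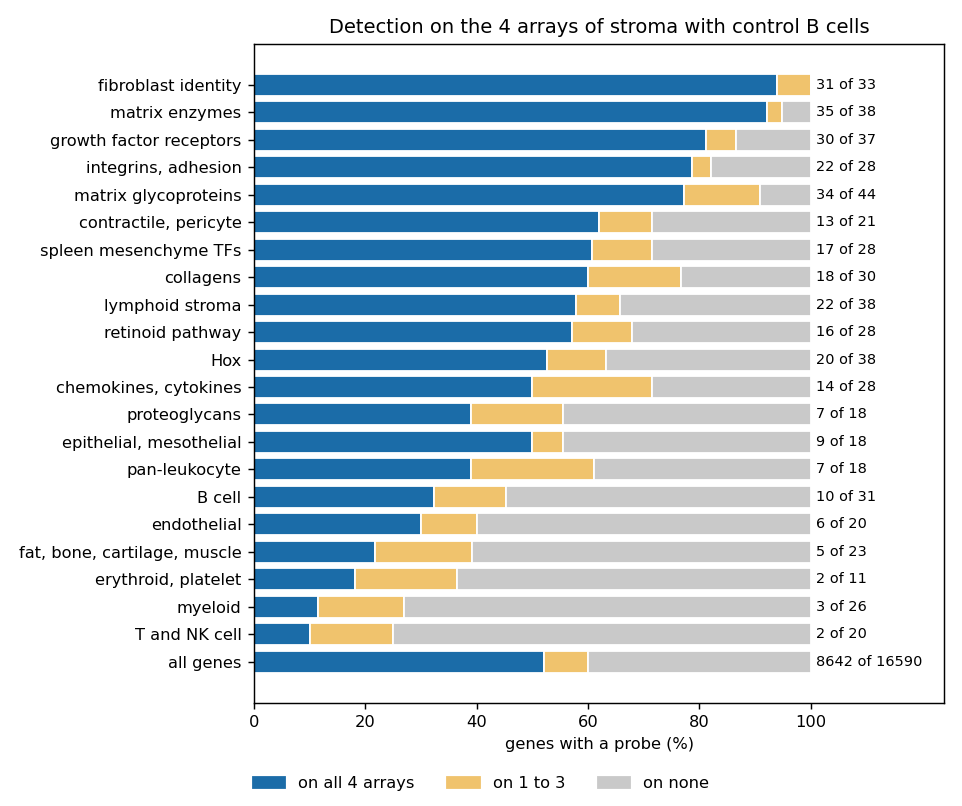
Share of the genes with a probe on each of 21 lists of identity, matrix, signalling and cell type genes that were detected on all 4 arrays, on 1 to 3 or on none, with the counts detected on all 4 at the right and all genes in the last row. Fibroblast identity (31 of 33) and matrix enzymes (35 of 38) lie highest of the lists plotted, and T and NK cell (2 of 20) and myeloid (3 of 26) lowest, beside 8642 of 16590 for all genes.

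Stromal cells were separated from a large excess of B cells, so markers of the cells that the sorted fraction could still hold were examined next. Of 31 B cell markers, 10 (32.3%) were detected on all 4 arrays, beside 52.1% of all genes, and 17 on none. The summed signal of the list ran from 2092 to 2663 over the arrays, undetected probes included. *Cd74*, the invariant chain of MHC class II, was the brightest, with signals of 199, 283, 213 and 365. *Cd79b* and *Cd79a*, the signalling chains of the B cell receptor, were at the edge of detection: *Cd79b* had signals of 77.4, 78.4, 137 and 105 and *Cd79a*, named after its values were seen, of 72.9, 91.3, 86.5 and 79.7. *Pax5*, *Ms4a1* (CD20), *Cd22*, *Blk*, *Blnk* and *Cd37* were not detected on any array. Among those detected, *Ebf1* is also a factor of mesenchymal cells, and the MHC class II genes are shared with other cells. *Mzb1*, a gene of plasma and B cells, had signals of 67.4, 79.4, 233 and 96.0, highest in replicate 3. With detection p below 0.01 on all arrays, 6 of the 10 remained. Some B cell markers were thus at low levels, and how much of them came from B cells was not tested. In bulk RNA, fewer cells of a type and less RNA per cell cannot be told apart.

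Of 18 pan-leukocyte genes, 7 (38.9%) were detected, beside 52.1% of all genes. *Arhgdib* (11.73 ± 0.06) and *Lsp1* (10.85 ± 0.35), regulators of the actin cytoskeleton, were bright, while *Ptprc*, which encodes the CD45 that all nucleated blood cells carry, had a signal of at most 61.5 on any array and was not detected. *Ikzf1*, *Cd48*, *Vav1*, *Lcp1* and *Hcls1* were also not detected on any array. The summed signal of the list ran from 5337 to 7720, and *Arhgdib* and *Lsp1* made up most of it on each array.

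Other lineages were also thinly represented. The shares detected of T and NK cell, myeloid, and erythroid and platelet genes were smaller than the 32.3% of B cell markers. That of endothelial genes was close to it. All of them lay below the 52.1% of all genes. Of 20 T and NK cell genes 2 were detected, namely the chemokine *Ccl5* (10.20 ± 0.66) and *Prf1* (7.22 ± 0.28), and *Cd3e*, *Cd3d*, *Cd3g* and *Cd8a* were not. Of 26 myeloid genes 3 were detected, namely the lipopolysaccharide co-receptor *Cd14* (8.87 ± 0.18) and the lysozymes *Lyz1* and *Lyz2*, whose near-identical sequences may share probes. *Adgre1*, *Itgam*, *Itgax* and the C1q genes *C1qa*, *C1qb* and *C1qc* were not detected. Of 20 endothelial genes 6 were detected, with *Flt1* (10.26 ± 0.16) and *Eng* (9.10 ± 0.24) the brightest, while *Cdh5*, *Vwf*, *Emcn*, *Tie1* and *Sox17* were not. Of 11 erythroid and platelet genes, *Tfrc*, the transferrin receptor of dividing cells, and *Itga2b* were detected.

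Of 18 epithelial and mesothelial genes 9 were detected, a share near the 52.1% of all genes. *Msln*, the mesothelial surface protein mesothelin, had signals of 940, 1747, 2059 and 1917 (10.62 ± 0.33). *Krt19* (8.92 ± 0.49), *Upk1b* (8.12 ± 0.48), *Krt18* (7.91 ± 0.21) and *Krt8* (7.52 ± 0.17) were also detected, together with *Wt1*, while the epithelial genes *Krt14*, *Krt5*, *Cldn3*, *Cldn4*, *Ocln* and *Esrp1* were not detected on any array. *Cdh1*, the cadherin of epithelia, had signals of 109, 163, 170 and 312, highest in replicate 4. Of 23 genes of fat, bone, cartilage, muscle and glia only 5 were detected, with the lipase *Lpl* (11.29 ± 0.36), *Sox9* (9.46 ± 0.31) and *Pparg* (9.12 ± 0.23) above the rest and *Myog* and *Alpl* just detected.

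Of 30 collagen genes 18 were detected, beside 52.1% of all genes, led by *Col6a1* (13.73 ± 0.19), *Col1a1*, *Col5a1* (13.17 ± 0.12), the basement membrane chain *Col4a1* (12.75 ± 0.11), *Col1a2* and *Col16a1* (11.99 ± 0.17). *Col10a1* of cartilage and the tissue-restricted basement membrane chains *Col4a3* and *Col4a4* were not detected. Of 44 matrix glycoproteins 34 (77.3%) were detected, with *Sparc*, the thrombospondin *Thbs2* (13.80 ± 0.32), *Tgfbi* (13.51 ± 0.16) and the growth factor-binding proteins *Igfbp4* (13.24 ± 0.13) and *Igfbp7* (12.92 ± 0.22) at the top. *Eln*, which encodes elastin, and *Fbln5*, which helps to assemble it, were not detected, and the fibrillin *Fbn1* and fibronectin *Fn1* were not analysed here.

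Of 18 proteoglycan genes only 7 (38.9%) were detected, beside 52.1% of all genes. Yet *Bgn*, which encodes biglycan, was one of the brightest genes of all, with signals of 24578, 25606, 27520 and 26670 (14.68 ± 0.05). *Prelp* varied more, with signals of 1653, 1156, 2714 and 2885 (10.93 ± 0.56), and *Fmod* was near threshold in replicates 1 and 2 (68.1 and 74.2) and higher in replicates 3 and 4 (139 and 141). Matrix enzymes were detected nearly throughout, in 35 of 38. The inhibitor *Timp2* (14.36 ± 0.07), the proteases *Mmp2* and *Mmp14* (14.28 ± 0.15), *Serpinf1* (14.20 ± 0.27), *Ctsb* (13.90 ± 0.13) and *Timp3* (13.57 ± 0.22) were the brightest. *Plau*, the urokinase gene, had signals of 1275, 1441, 3271 and 3063, higher in replicates 3 and 4 than in 1 and 2.

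Surface receptors formed a similar picture. The 2 lists below, at 78.6% and 81.1%, lay above the 52.1% of all genes. Of 28 integrin and adhesion genes 22 were detected, with the tetraspanins *Cd63* (15.00 ± 0.04), *Cd81* (14.17 ± 0.13), *Cd151* (12.53 ± 0.12) and *Cd9* (12.35 ± 0.16) and the adhesion molecule *Vcam1* (12.57 ± 0.06) at the top, and *Itga2*, *Itga4*, *Itga9* and *Itgb8* not detected. Of 37 growth factor and cytokine receptors 30 were detected. *Axl*, a receptor for Gas6, was the brightest (13.82 ± 0.04), followed by the TGF-β receptors *Tgfbr2* (13.47 ± 0.04) and *Tgfbr1* (12.05 ± 0.12).

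Of 38 genes that equip stroma to organise lymphocytes 22 (57.9%) were detected, a share near the 52.1% of all genes. *Cxcl12*, the chemokine that retains B cells and progenitors, ranked 44 of all genes, with signals of 24168, 26841, 26529 and 30272 (14.73 ± 0.09). *Mfge8* (13.63 ± 0.18), *Pdpn* (13.53 ± 0.08) and *Vcam1*, whose signals lay between 5213 and 6600, were bright as well. By contrast *Cxcl13*, the B cell chemokine of follicles, had signals of 47.0, 42.2, 50.2 and 47.3 with a highest detection p of 0.961, and the T zone chemokines *Ccl19* and *Ccl21a*, the survival factor *Il7*, *Madcam1* and *Cr2* were not detected on any array. The receptors and factors of the lymphotoxin pathway are given here although chosen after their values were seen: *Ltbr* had signals of 459, 535, 629 and 563, *Relb* had a level of 8.22 ± 0.04 and *Nfkb2* of 7.70 ± 0.26.

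Retinoid genes, the subject of the study, were detected in 16 of 28 cases (57.1%), near the 52.1% of all genes. Retinoic acid is made from retinol by retinol and then retinaldehyde dehydrogenases, is bound by Crabp proteins, acts through Rar and Rxr receptors and is degraded by Cyp26 enzymes. Of the synthesising enzymes *Aldh1a1* had signals of 459, 416, 870 and 516 (8.99 ± 0.43), highest in replicate 3, and *Rdh10* of 133, 163, 173 and 144 (6.88 ± 0.10). *Cyp1b1*, which can also oxidise retinol, was steady at 9.51 ± 0.05, and *Aldh3b1* varied more (8.86 ± 0.23). *Aldh1a3* was not detected. The binding protein *Crabp1* was bright, with signals of 3075, 5663, 6407 and 6789 (12.36 ± 0.35), lowest in replicate 1. Among receptors *Rxrb* reached 10.59 ± 0.12 and *Rarb* 6.65 ± 0.42, and *Rxrg* was not detected. The degrading enzymes *Cyp26a1* and *Cyp26b1* were not detected on any array, with signals of *Cyp26b1* between 51.1 and 56.0.

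The 20 brightest genes were those of growing cells in general. There were 10 that encode ribosomal proteins (*Rplp1*, *Rps4x*, *Rpl9*, *Rps2*, *Rps12*, *Rpl38*, *Rpl41*, *Rpl37*, *Rps19* and *Rps24*). Beside these were the cytoskeletal genes *Tuba1b*, *Actb* and *Dctn2*, the ATP synthase subunit *Atp5b*, ferritin heavy chain *Fth1*, the elongation factor subunit *Eef1g*, the nucleolar protein *Npm1*, the kinase *Nme2*, the membrane protein *Itm2b* and a probe assigned to the ubiquitin pseudogene *Ubb-ps*, which may read transcripts of its parent gene. Their levels ran from 15.38 (*Rplp1*) to 15.05 (*Npm1*) with SDs of 0.05 to 0.27. Of the 100 brightest genes, 33 were on the list of ribosomal proteins, whose probes may also bind transcribed pseudogenes, 7 were fibroblast identity genes and 6 were cytoskeletal. *Mdm2*, the p53 antagonist, was at 14.73 ± 0.08 with all 3 of its probes detected, and the cell cycle inhibitor gene *Cdkn2a* at 13.17 ± 0.09. Both are on a list of p53 targets and inhibitors of which 21 of 25 were detected, beside 52.1% of all genes.

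Proliferation genes were detected in most cases, 33 of 36 for DNA replication and 20 of 29 for mitosis, beside 52.1% of all genes. The replicative helicase subunits *Mcm4* (12.23 ± 0.18), *Mcm6* (11.82 ± 0.22) and *Mcm5* (11.63 ± 0.28) and the mitotic genes *Cenpa* (12.70 ± 0.10), *Birc5* (11.51 ± 0.15) and *Cdk1* (11.14 ± 0.21) were bright. All 21 genes of cholesterol and fatty acid synthesis on the array were detected, led by *Hmgcs1* (14.16 ± 0.19) and *Fads1* (14.10 ± 0.05).

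A probe below the threshold does not show that its gene was silent. The ribosomal protein genes *Rplp2*, *Rpl17* and *Rps23*, which every growing cell uses, were not detected on any array, with signals of *Rps23* between 41.4 and 52.7, nor were *Canx*, which encodes calnexin, and the mitotic cyclin gene *Ccnb2*, although *Cdk1* was bright. Of 4776 genes with more than 1 probe, 1353 had some probes detected on all 4 arrays and others not. *Cxcl12* is such a gene, with 3 of 5 probes detected.

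Between the clear and the missing genes lay 778 (4.69% of all genes) that were just detected, meaning on all 4 arrays with a highest p of 0.01 or above. Their mean signals had a median of 82.9, beside 49.5 for genes detected on no array. The list genes nearest to the threshold were *Col11a1*, *Myog*, *Hoxb8*, *Rpsa*, *Alpl*, *Nkx3-2*, *Dnaja1*, *Gata4*, *Nt5e* and *Rpl6*. *Col11a1* had signals of 67.3, 105.8, 86.2 and 67.8 and a highest detection p of 0.0476. *Gata4*, of mesenchymal and cardiac development, had signals of 78.7, 94.6, 72.9 and 83.1.

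The line held transcripts of both sex chromosomes. The Y-linked *Eif2s3y* had signals of 571, 782, 764 and 1142, and *Kdm5d* and *Uty* were detected on every array, while *Xist*, the RNA of the inactive X chromosome, had signals of 464, 494, 395 and 280. *Eif2s3y* was highest and *Xist* lowest in replicate 4. Whether these came from stromal cells of embryos of both sexes or in part from the B cells cannot be told apart.

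The 4 arrays resembled each other closely. Pearson's r between pairs of arrays was 0.987 to 0.991 across the 8642 detected genes, which are not independent replicates. The SD between arrays had a median of 0.169 log2, a factor of 1.125. It was larger for dim genes, with a median of 0.224 in the lowest of 4 equal bins of level and of 0.132 in the highest. The median absolute deviation of an array from the mean of the other 3 was 0.141 for replicate 1, 0.165 for replicate 2, 0.144 for replicate 3 and 0.148 for replicate 4, so that no array stood far from the rest over all genes.

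The steadiest genes in the upper 3 of these 4 bins were *Ntpcr*, *Atp6v0a1*, *Rnaseh1*, *Mrrf*, *Atg16l1*, *Sirt7*, *Chaf1b*, *Trp53inp1*, *Lnx2* and *Xkr5*. *Ntpcr* had signals of 2238, 2714, 3002 and 2898, and levels of 11.39, 11.38, 11.39 and 11.39 after normalization. Like the median signal of the arrays, its signals were lowest in replicate 1 and highest in replicate 3. Of the genes often used as references, *Gusb* (12.49 ± 0.04), *Ywhaz* (13.27 ± 0.08) and *B2m* (14.40 ± 0.09) varied less than *Gapdh* (14.37 ± 0.18) and *Tfrc* (10.33 ± 0.44).

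Of the detected genes, 201 (2.33%) had an SD above 0.5, a count of 97 without background correction and of 44 in the authors' matrix. Replicate 3 was the highest array for 81 of them (40.3%), beside 1984 of all 8642 detected genes, and replicate 2 was the lowest for 80 (39.8%), beside 29.3%. The 20 genes with the largest SD, chosen by that SD among 6481 genes in the upper 3 bins, were without exception highest in replicate 3, and 16 of them were lowest in replicate 2.

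**Figure D3:**
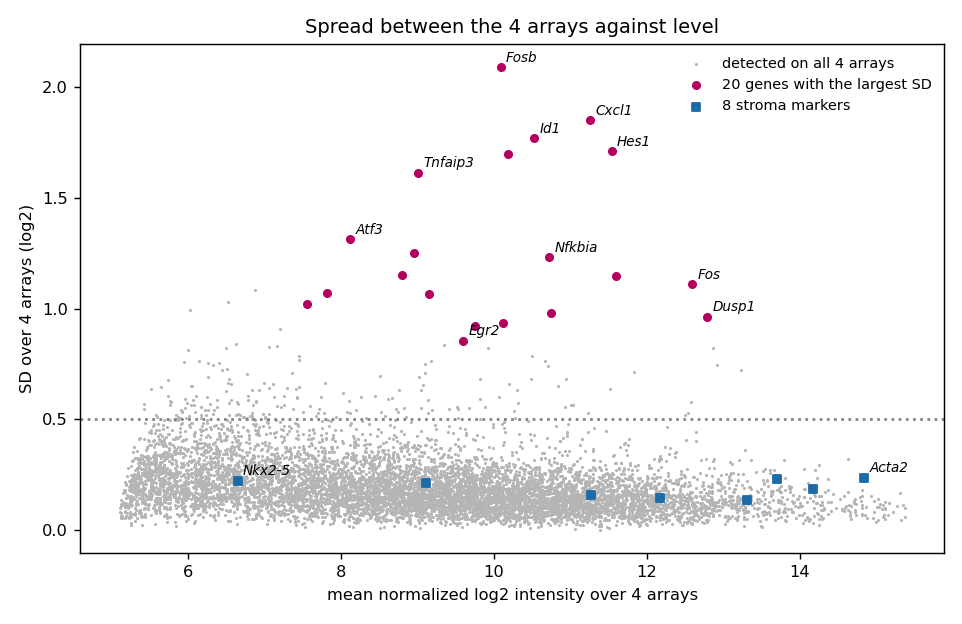
SD over the 4 arrays against mean normalized log2 intensity for the 8642 detected genes (grey), with the 20 genes of largest SD (pink) and the 8 stroma markers (blue squares). The dotted line is an SD of 0.5. The markers lie in the bulk, with SDs of 0.14 to 0.24, while the pink genes reach 2.09 (*Fosb*).

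Of the 20, 6 were on the list of immediate early genes, which cells transcribe soon after a stimulus. They include transcription factors of the AP-1 and Egr families. *Fosb* had signals of 515, 267, 7371 and 1673 and levels of 9.23, 7.81, 12.72 and 10.59. Replicate 3 was far above the others and replicate 4 was in between. *Fos* had levels of 12.63, 11.07, 13.71 and 12.95, *Atf3* of 7.21, 7.05, 9.90 and 8.30, and *Egr2* of 8.99, 9.26, 10.86 and 9.27. The other members of the list were *Dusp1* (SD 0.96), a phosphatase that ends MAP kinase signals, and *Zfp36* (1.15), which speeds the decay of cytokine mRNAs. Outside it were the transcription factors *Csrnp1* (1.70) and *Nfil3* (0.92) and *Hbegf* (1.06), a ligand of the EGF receptor. Without replicate 3 the SDs were 1.39 for *Fosb*, 0.67 for *Atf3*, 0.16 for *Egr2*, 0.45 for *Zfp36*, 0.69 for *Dusp1*, 0.62 for *Csrnp1*, 0.19 for *Nfil3* and 0.06 for *Hbegf*. That of *Fos* was 1.02 without replicate 3 and 0.55 without replicate 2, against 1.11 over all 4.

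A further 6 were on the lists of chemokines and of acute phase genes, among them feedback genes of NF-κB, a transcription factor of inflammation. *Cxcl1*, a neutrophil chemokine, had signals of 1080, 1237, 17312 and 1487 and levels of 10.35, 10.23, 14.03 and 10.41. Replicates 1, 2 and 4 were alike, and without replicate 3 the SD of 1.85 dropped to 0.09. *Tnfaip3*, which encodes the inhibitor A20, had levels of 8.10, 8.15, 11.42 and 8.37, and *Nfkbia*, which encodes the inhibitor IκBα, of 10.23, 9.79, 12.53 and 10.32. Without replicate 3 their SDs were 0.15 and 0.28. The chemokines *Ccl2* (1.15) and *Ccl7* (0.94), the stress gene *Gadd45b* (1.25) and the IκB-like *Nfkbiz* (0.98) had the same highest array, and without it their SDs were 0.45, 0.32, 0.22 and 0.24 in that order. The remaining genes were *Id1* (levels 9.88, 8.57, 12.77 and 10.86), *Id2* and *Hes1* (11.61, 9.40, 13.58 and 11.57), known targets of BMP and Notch signals, and *Tcim* (SD 1.07). Without replicate 3 the SDs were 1.15 for *Id1*, 0.64 for *Id2* and 0.43 for *Tcim*. That of *Hes1* was 1.27 without replicate 3 and 1.15 without replicate 2, against 1.71 over all 4.

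**Figure D4:**
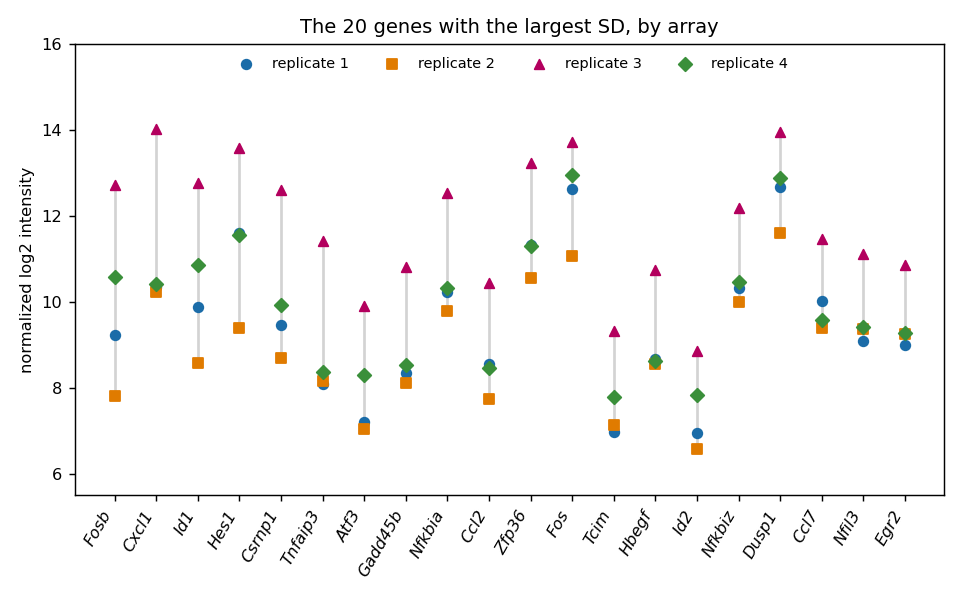
Normalized log2 intensity of the 20 genes with the largest SD, 1 symbol per array, in order of SD. Replicate 3 is the top symbol for every gene and replicate 2 the lowest for 16 of 20. For *Cxcl1*, *Tnfaip3* and *Hbegf* the other 3 arrays lie together, while for *Fosb*, *Id1* and *Hes1* they spread as well.

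The same array was the only one to detect some cytokines. *Il6*, *Cxcl2*, *Csf2* and *Tnf* are named here after their values were seen: *Il6* had signals of 55.8, 62.0, 233 and 74.5, *Cxcl2* of 45.5, 44.3, 186 and 48.3, and *Csf2* had 144 in replicate 3. *Cxcl2*, *Csf2* and *Tnf* passed the detection threshold in replicate 3 alone, and *Il6* also in replicate 4. Over all genes, 187 were detected in replicate 3 alone, beside 117 to 152 in each of the other arrays alone.

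To show what letters lie before the starts of these genes, RefSeq promoters (build GRCm38.p6) were searched over the 250 bases before each start, on both strands. The letters GGG, any 2 bases, then TTTCC, a common form of the NF-κB site, were in 447 of 27025 genes (1.65%) and in 3 of the 13 most variable genes that had an entry. They were also in *Vim*, 1 of 5 stroma markers with an entry. The 3 variable genes are *Cxcl1*, *Nfkbia* and *Tnfaip3*, shown here because they are the ones with a match, with the matches in capitals. *Id1*, *Hes1*, *Ccl2*, *Tcim*, *Hbegf*, *Nfkbiz* and *Ccl7* had no entry. The cyclic AMP response letters TGACGTCA were in *Dusp1* alone (1.77% of all genes). A match is a run of letters and not a measured site.
*Cxcl1* (chr5:90890995-90891244, plus strand): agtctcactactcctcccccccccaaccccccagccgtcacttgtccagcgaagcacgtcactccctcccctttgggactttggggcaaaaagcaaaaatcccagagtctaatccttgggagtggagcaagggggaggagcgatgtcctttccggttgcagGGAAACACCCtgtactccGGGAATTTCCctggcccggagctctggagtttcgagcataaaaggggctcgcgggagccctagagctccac
*Nfkbia* (chr12:55492648-55492897, minus strand): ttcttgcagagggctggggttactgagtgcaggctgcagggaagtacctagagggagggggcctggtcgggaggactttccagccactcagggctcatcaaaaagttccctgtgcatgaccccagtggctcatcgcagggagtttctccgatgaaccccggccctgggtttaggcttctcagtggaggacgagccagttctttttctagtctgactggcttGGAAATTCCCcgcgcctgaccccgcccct
*Tnfaip3* (chr10:19015411-19015660, minus strand): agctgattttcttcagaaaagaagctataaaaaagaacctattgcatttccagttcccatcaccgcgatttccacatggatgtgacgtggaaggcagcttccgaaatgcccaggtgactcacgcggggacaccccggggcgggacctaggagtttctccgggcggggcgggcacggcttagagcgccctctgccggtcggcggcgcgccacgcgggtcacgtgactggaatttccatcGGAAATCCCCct

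The arrays also differed in the mean level of the detected genes of some lists, most of all in immediate early genes. The 23 detected immediate early genes had mean levels of 10.51, 10.12, 11.53 and 10.67 in replicates 1 to 4. Replicate 3 was 1.10 above the mean of the others. Of the 23 genes, 21 were highest there, beside 1984 of all 8642 detected genes. Replicate 2 was the lowest array for 14, beside 29.3% of all detected genes. The list means and these counts include *Fosb*, *Fos*, *Atf3*, *Egr2*, *Dusp1* and *Zfp36*, chosen above for their large SD. The shift without these genes was not computed. They also include genes beyond the 20 above, such as *Ier3* (12.86 ± 0.82), *Ccn2* (12.58 ± 0.58) and *Egr1*, whose signals were 23505, 18882, 31267 and 27732. The means of the chemokine list (14 detected) and the acute phase list (18 detected) were also highest in replicate 3, by 0.53 and 0.45. Their members were mixed: 6 chemokine and 7 acute phase genes were highest there, while 4 and 3 were lowest there. Of all 8642 detected genes, 1984 were highest and 25.2% lowest in replicate 3. Both lists share genes with the 20, among them *Cxcl1*, *Ccl2* and *Nfkbia*.

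Interferon-response genes ran the other way. All cells make them in answer to interferons, and 42 of 51 (82.4%) were detected, beside 52.1% of all genes, with *B2m*, *Ifitm3* (14.26 ± 0.29), *Ifitm2* (13.73 ± 0.18) and the GTPase *Irgm1* (13.36 ± 0.15) at the top. Their mean levels were 9.02, 9.09, 8.74 and 9.29, lowest in replicate 3 and highest in replicate 4. Of the 42 genes, 25 were lowest in replicate 3 and 23 were highest in replicate 4, beside 25.2% and 27.0% of all detected genes. In the authors' matrix the shift of the list in replicate 4 was 0.19, against 0.34 here. *Usp18*, which ends interferon signalling, had signals of 500, 793, 338 and 855, and *Isg15*, a ubiquitin-like modifier, of 1091, 1250, 689 and 1568. *Gbp3*, a GTPase of defence against microbes, had signals of 547, 735, 343 and 724, and *Ifit3* of 2076, 2495, 1107 and 2050. *Irf1*, which NF-κB can also induce, went against the list, with 3850, 5426, 10845 and 5278, highest in replicate 3. *Mx1*, *Ifit1*, *Oas1a*, *Oas3*, *Iigp1* and *Xaf1* were not detected on any array.

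The letters GAAA, any 2 bases, then GAAA, the core of the interferon response element, were in 14 of the 35 detected interferon genes that had a promoter entry (40.0%), beside 936 of 27025 genes (3.46%), and in none of the 13 most variable genes with an entry. The promoters of *Isg15* and *Gbp3* are shown with the matches in capitals, as the counterpart of those above. Where capitals run on, matches overlap or touch, and TTTC is GAAA read on the other strand.
*Isg15* (chr4:156200819-156201068, minus strand): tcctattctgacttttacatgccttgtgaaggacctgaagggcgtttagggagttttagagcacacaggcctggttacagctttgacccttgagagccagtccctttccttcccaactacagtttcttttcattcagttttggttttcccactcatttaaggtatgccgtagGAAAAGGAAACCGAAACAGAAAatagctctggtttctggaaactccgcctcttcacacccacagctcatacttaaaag
*Gbp3* (chr3:142559794-142560043, plus strand): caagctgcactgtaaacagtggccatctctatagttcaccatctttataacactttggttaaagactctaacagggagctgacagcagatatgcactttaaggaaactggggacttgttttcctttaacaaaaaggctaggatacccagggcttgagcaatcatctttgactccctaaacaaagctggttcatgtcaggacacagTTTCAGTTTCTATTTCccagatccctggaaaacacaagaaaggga

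In replicate 2 cell division genes were higher, and the means of matrix lists went both ways. The 33 detected DNA replication genes had mean levels of 9.45, 9.70, 9.49 and 9.33, with 23 of them highest in replicate 2, and the 20 detected mitosis genes of 9.49, 9.77, 9.59 and 9.47, with 15 highest there, beside 26.2% of all detected genes. *Mcm7* had signals of 402, 730, 419 and 331, and *Bub1b* of 269, 568, 417 and 368. In the same array 16 of 34 detected matrix glycoproteins were at their lowest, beside 29.3% of all detected genes, and the list mean lay 0.22 below the other 3. The mean of the 7 detected proteoglycan genes was 0.33 lower there, while that of the 18 detected collagens was 0.15 higher. Single members were divided: 3 proteoglycan genes were lowest in replicate 2 and 3 in replicate 3. Of the collagens, 7 were highest in replicate 2 and 6 in replicate 1. *Col15a1*, a basement membrane collagen, had signals of 1316, 3496, 1488 and 1107, highest in replicate 2, and the acute phase gene *Saa3* had 81.5, 307, 119 and 98.7, also highest there.

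In replicate 4 the 21 genes of cholesterol and fatty acid synthesis were highest in 14 cases, beside 27.0% of all detected genes, with list means of 10.69, 10.75, 10.85 and 10.95. All 6 detected MHC class II genes were also at their highest there, 0.46 above the other arrays on average, a shift of 0.13 in the authors' matrix. The B cell list was also highest in replicate 4, at 6.41, against 6.08, 6.07 and 6.32 in replicates 1 to 3, and 4 of its genes are also on the MHC class II list. The pan-leukocyte list was at 7.97 in replicate 4, against 7.72, 7.65 and 7.90. In the authors' matrix the shifts of these lists in replicate 4 were 0.06 and 0.11, against 0.25 and 0.21 here. Whether B cell transcripts had a part in this was not tested. In replicate 3, besides the interferon genes, 24 of 37 detected respiratory chain genes and 12 of 20 detected Hox genes were at their lowest, beside 25.2% of all detected genes. The list means were 0.25 and 0.22 below the others. In the authors' matrix the Hox shift was -0.11. The means of some identity lists moved little: the largest deviation of any array from the other 3 was 0.05 for fibroblast identity genes, 0.03 for contractile genes and 0.10 for spleen mesenchyme factors. For genes that equip stroma to organise lymphocytes it was 0.225, in replicate 3. For epithelial and mesothelial genes it was 0.365, in replicate 4. A steady list mean can hide moving members: detected contractile genes had a median SD of 0.249, beside 0.169 for all detected genes.

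**Figure D5:**
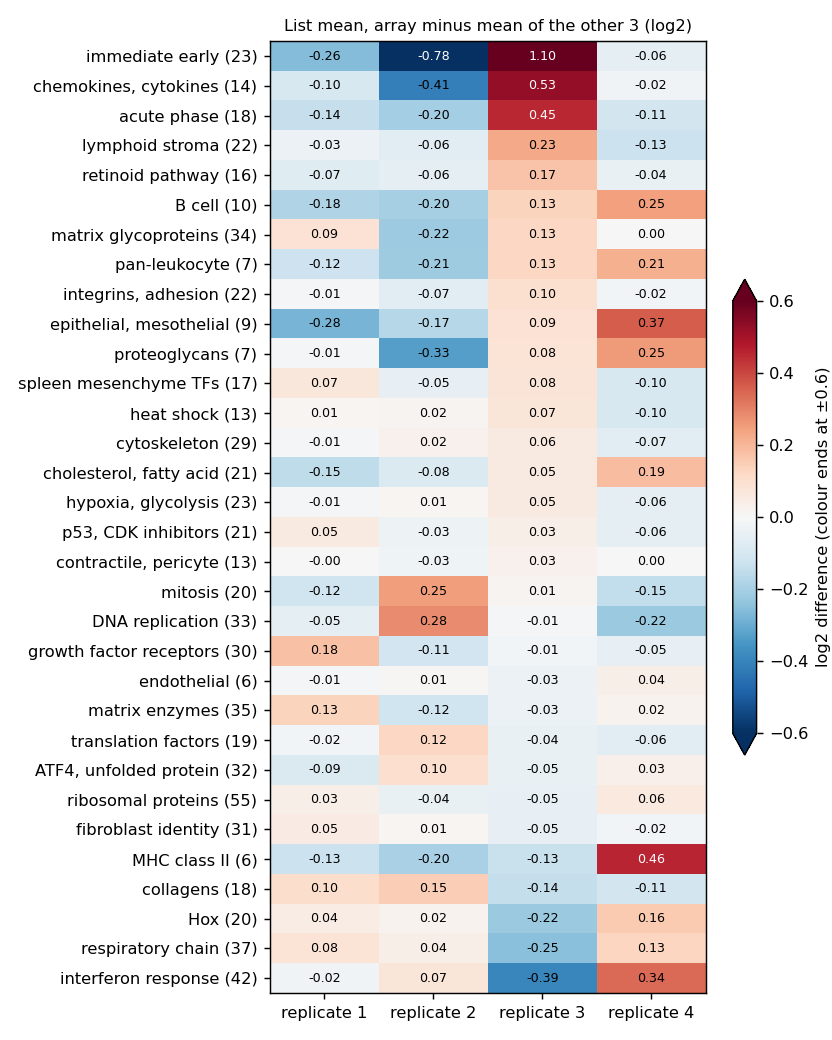
For each list with at least 6 detected genes (their number in brackets), the mean log2 level in an array minus the mean of the other 3 arrays, in order of replicate 3. Red is higher and blue lower than the other arrays. Immediate early genes reach 1.10 in replicate 3, interferon genes -0.39 in replicate 3 and 0.34 in replicate 4, and DNA replication genes 0.28 in replicate 2.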

How the data were processed

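The authors deposited, for each array, a linear signal intensity per probe with no normalization across arrays, and a detection p-value per probe against negative control beads. They also deposited a log2-like matrix normalized with lumi, whose columns all have a median of 7.72 and whose transformation settings are not given in the sources used here. The signals of the 4 control arrays were processed with the neqc steps of limma 3.58.1 in R 4.3.3: normexp background correction informed by the detection p-values, an offset of 16, quantile normalization and log2. Of 25697 probes, 23978 had 1 gene symbol, none several, and 1719 were unnamed here. The probe with the highest mean stood for its gene. A list gene with no named probe was not analysed here. No group was compared with another, and the only test was Dixon's criterion for an array apart from the other 3. The normalization was also run on simulated data in which probes varied independently. That run does not bear on shifts of whole lists. The figures were drawn with matplotlib in Python.

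The 4 arrays, the 40 gene lists (1194 entries, 1069 matched) and the described patterns were chosen with earlier results of these data known. Genes were named by rule: the 8 markers, genes of the study's text, the 20 brightest, the 20 with the largest and the 10 with the smallest SD among detected genes in the upper 3 of 4 bins of level, the 10 list genes nearest the threshold, and for each list up to 6 bright, 4 variable and 6 undetected members; others are named as chosen after their values were seen. Alternatives were no background correction, another offset, scaling, threshold or choice of probe, the authors' matrix, all 8 arrays in the normalization, and leaving out each replicate. The number of arrays limits the precision.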

Additional observations from a re-analysis of the deposited data

Results flagged for a closer look

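In a group of 4 values, 1 array is singled out here when its gap to the nearest other exceeds the share of the whole range that is Dixon's critical value for 4 samples, which chance alone does in about 1 of 20 groups. Of 90 groups examined, 11 met this, namely 7 of 48 genes, 4 of 40 lists and neither of 2 array totals, the probes detected and the median signal. That chance rate cannot be set against these counts, since 20 of the genes were chosen for the largest SD, and lists share genes.

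Replicate 3 was singled out as the highest array for *Cxcl1* (log2 level 14.03), *Tnfaip3* (11.42), *Gadd45b* (10.81), *Hbegf* (10.74), *Nfil3* (11.11) and *Egr2* (10.86), all among the 20 genes chosen for their large SD, and for the mean of the acute phase list (8.42) and of the retinoid list (8.24). Replicate 4 was singled out as the highest for *Nme2* (15.22, against 15.02 to 15.05 in the others) and for the mean of the MHC class II list (6.89). Replicate 2 was the lowest for the mean of the genes named in the study's text (9.92).

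Outside the named genes, 746 of the 1719 probes that are unnamed here were detected on all 4 arrays (43.4%), and 13 of them were among the 100 brightest probes.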

How the results depend on the processing

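No paired analysis was possible because the results come from no test between groups. The counts of genes detected on all arrays, of fibroblast and of pan-leukocyte genes moved by less than 1.5 times under every alternative run. The 6634 genes detected on no array became 10695 features when every probe counted, and the 10 detected B cell markers became 6 with detection p below 0.01. The median SD of 0.169 was 0.147 without background correction, 0.184 with median scaling, 0.099 in the authors' matrix, 0.147 with an offset of 50, 0.164 for genes with detection p below 0.01, 0.126 with no filter, and 0.15 to 0.162 when a replicate was left out. The 201 genes with an SD above 0.5 became 97 without background correction, 98 with an offset of 50 and 44 in the authors' matrix, and 207 to 283 when a replicate was left out. The replicate farthest from the others, replicate 2 at 0.165, stayed at 0.144 without background correction and 0.091 in the authors' matrix. With median scaling it was replicate 1, at 0.176, and with a replicate left out the farthest one lay at 0.158 to 0.18 and was replicate 1 without replicate 2 and replicate 3 without replicate 4. Of the 20 genes with the largest SD, 17 were again among the 20 in the authors' matrix, 14 with no filter and 6 without replicate 3. The 18 list shifts of single replicates run, chosen after seeing the data, kept their sign under 4 other scalings, but the highest value of growth factor receptors in replicate 1 (0.18) was 0.04 with median scaling, and in the authors' matrix the MHC class II shift in replicate 4 (0.46) was 0.13, the B cell shift (0.25) 0.06, the pan-leukocyte shift (0.21) 0.11, the interferon shift in replicate 4 (0.34) was 0.19 and the Hox shift in replicate 3 (-0.22) was -0.11. The causes were not tested. Of the 201 genes with an SD above 0.5, 100 lay in the dimmest of 4 bins of level.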
